A study of Mus with 6 samples.

Results

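The 31 genes described here make cholesterol, sense it, move it out of the cell or store it. They were picked by name from the roles of their proteins: 4 genes that control the transcription factor SREBP2, 18 enzymes of cholesterol synthesis, 1 intracellular sterol carrier, 5 targets of the oxysterol receptor LXR and 3 enzymes that esterify cholesterol. All 31 were found among the 48882 genes of the table, and all 31 were abundant enough to be among the 14155 genes tested. The RNA was from flash-frozen liver, as 3 libraries of mice lacking Fabp4 (FABP4-/-) and 3 of wild type (WT) littermates. Fabp4 encodes a lipid carrier of adipocytes, macrophages and capillary endothelium. Both groups had been fed the Lieber-DeCarli liquid diet containing ethanol for 8 weeks and had then been given a single ethanol binge, which models alcoholic steatohepatitis (ASH), so the controls share the whole ethanol exposure. The labels name no promoter or cell type for the deletion, give no age, and do not say that each library is a separate mouse, so the p-values measure only how far these libraries spread, which may be technical. The comparison addresses what the loss of Fabp4 changes in the ASH liver.

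The liver both makes cholesterol and removes it into bile and lipoproteins. When sterols run low in the endoplasmic reticulum, SCAP escorts SREBP2 to the Golgi, where it is cut, and the freed fragment switches on nearly every gene of the synthesis pathway; when sterols are plentiful, INSIG proteins hold SCAP and SREBP2 back. Oxysterols, which build up with cholesterol, activate LXR, which switches on the export pumps ABCA1, ABCG1, ABCG5 and ABCG8 and the ubiquitin ligase MYLIP (IDOL).

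Levels are given in TPM, a length-corrected share of transcripts, and differences are knockout minus wild type on the log2(TPM + 1) scale, which understates changes of low genes. Where 3 values are given for a group, they are in the order of replicates 1, 2 and 3. Fabp4 itself had 14.7, 8.15 and 19.96 TPM among the wild type, while the knockout libraries have no value for it. The defining hepatocyte genes were abundant in every library, with Ttr between 4745 and 8561 TPM. Wild type replicate 2 stood apart on the first principal component and knockout replicate 1 on the second, and these are the 2 libraries called apart below. Wild type replicate 1 lay at the other end of the second component, at 21.8 against -30.8 for knockout replicate 1. The remaining libraries were between -5.9 and 6.8 there. TPM keeps no sequencing depth, so depth is unknown and the number of libraries limits the precision.

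No sterol gene passed the threshold. Of the 31, 12 were higher and 19 lower in the knockout, and 0 passed limma at 0.05 after Benjamini-Hochberg adjustment over all genes tested, where 1 gene of 14155 (0.00706%), Fabp4 itself, passed as lower. The smallest limma adjusted p among the 31 was 0.522. At an unadjusted limma p under 0.05 there were 4 members (12.9%), against 8.03% of all genes; Acat2 was higher, against 5.12% of all genes that way, and Insig2, Sqle and Hsd17b7 were lower, against 2.91%. Over all genes these unadjusted calls were 725 higher and 412 lower without further scaling, and 565 and 530 after median scaling. The 3 knockout values lay wholly apart from the 3 wild type values for 5 members (16.1%), against 13.3% of all genes. Among these 5, Acat2 and Mylip were higher (8.94% of all genes) and Srebf2, Insig2 and Hsd17b7 lower (4.38%). The median difference of the 31 was -0.13, against 0.04 for all genes tested.

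**Figure D1:**
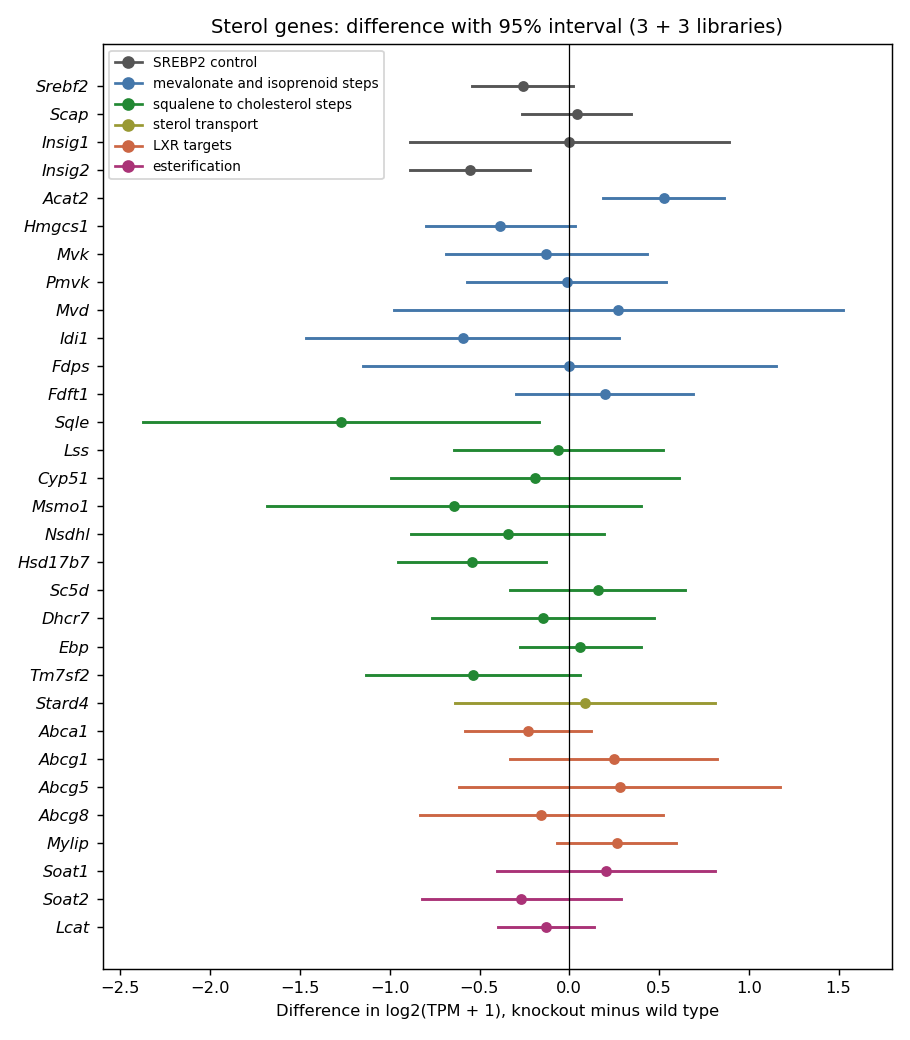
Difference between groups in log2(TPM + 1), knockout minus wild type, for the 31 sterol genes; dots are the estimates, bars the 95% intervals from limma, and colours the roles. The intervals of Insig2, Sqle and Hsd17b7 lie below 0 and that of Acat2 above 0, before any adjustment for the 14155 genes tested.

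Among the genes that control SREBP2, Insig2 and Srebf2 were lower in every knockout library than in any wild type library. Insig2 encodes the endoplasmic reticulum anchor whose liver transcript is known to be lowered by insulin. Insig2 (mm10 chromosome 1, 121304353 to 121332589, minus strand) had 115, 86.0 and 109 TPM among the wild type and 74.7, 68.3 and 65.9 TPM in the knockout libraries. The wild type mean of 103 ± 15.2 TPM (SD, n = 3) was 1.48 times the knockout mean of 69.6 ± 4.58 TPM (SD, n = 3). Its log2 difference was -0.55 (SE 0.14, 95% interval -0.89 to -0.22), with a limma adjusted p of 0.522. An exact permutation test, two-sided, had p = 0.1, the smallest possible with 3 against 3 libraries. With any single library left out the difference lay between -0.68 and -0.47. Its sign could not turn there, because the groups did not overlap.

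Srebf2 encodes SREBP2 itself and is a target of its own product. It was at 17.0, 19.8 and 18.6 TPM among the wild type, compared with 15.02, 16.4 and 14.5 TPM in the knockout. The log2 difference was -0.26 (SE 0.12, 95% interval -0.54 to 0.02; limma adjusted p 0.672). The gap between the groups was narrow, from 16.4 to 17.0 TPM. Scap, the escort, was at 30.3, 29.8 and 36.4 TPM against 30.7, 35.8 and 32.8 TPM in the knockout, so the groups overlapped (log2 0.04, 95% interval -0.26 to 0.34). Insig1, the anchor that is itself an SREBP target, was at 72.9, 80.2 and 169 TPM among the wild type, compared with 64.3, 106 and 145 TPM in the knockout. The Insig1 means were 107 ± 53.5 and 105 ± 40.5 TPM (SD, n = 3 each). The 95% interval of its log2 difference ran from -0.89 to 0.89, so it holds changes of almost 1 on the log2 scale in either direction. The ratio of Insig1 to Insig2 TPM was 0.636, 0.932 and 1.55 in the wild type and 0.861, 1.55 and 2.21 in the knockout, so that it lay below 1 in libraries of both groups.

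The early enzymes carry acetyl-CoA through mevalonate to squalene. Of these 8, 3 were higher and 5 lower, with a median difference of -0.01. Acat2 encodes the cytosolic thiolase that joins acetyl-CoA units (the esterifying enzyme that is also called ACAT2 is the product of another gene, Soat2). Acat2 (chromosome 17, 12943042 to 12960725, minus strand) was at 19.98, 20.03 and 26.7 TPM among the wild type, compared with 30.4, 33.0 and 33.2 TPM in the knockout. Every knockout library was above every wild type library, with means of 32.2 ± 1.54 and 22.3 ± 3.89 TPM (SD, n = 3 each), a ratio of 1.45. The log2 difference was 0.52 (SE 0.15, 95% interval 0.19 to 0.86), the limma adjusted p was 0.522, and the exact permutation p was 0.1.

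Hmgcs1, the HMG-CoA synthase of the cytosol, leaned the other way. It was at 74.0, 111 and 113 TPM among the wild type, compared with 71.9, 78.9 and 73.1 TPM in the knockout. Wild type replicate 1 lay within the knockout range and the other 2 above it (log2 -0.38, SE 0.18, limma adjusted p 0.663). Idi1, the isomerase of isopentenyl diphosphate, was at 8.64, 21.7 and 16.6 TPM against 5.64, 13.5 and 10.6 TPM (log2 -0.59, 95% interval -1.46 to 0.28), and its groups overlapped. Its difference was -0.94 when wild type replicate 1 was left out, -0.27 when knockout replicate 1 was, and it was -0.0031 without both libraries that stood apart.

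Fdps, which builds farnesyl diphosphate, had equal group means on the log scale and a wide spread within wild type. It was at 18.9, 72.6 and 73.6 TPM among the wild type, compared with 60.9, 36.0 and 46.7 TPM in the knockout, with a 95% interval of -1.15 to 1.15. Mvd, the mevalonate diphosphate decarboxylase, spread as widely, from 1.88 TPM in wild type replicate 1 to 12.6 TPM in wild type replicate 3. Squalene synthase, Fdft1, was at 12.5, 16.8 and 22.4 TPM against 17.0, 22.5 and 19.2 TPM (log2 0.20, SE 0.21). The mevalonate kinase genes Mvk and Pmvk had log2 differences of -0.13 (SE 0.24) and -0.01 (SE 0.24).

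The later enzymes turn squalene into lanosterol and then cholesterol. Of these 10, 8 were lower and 2 higher, with a median difference of -0.27. Squalene epoxidase, Sqle (chromosome 15, 59315092 to 59331193, plus strand), a rate-limiting enzyme of the late pathway, had the largest difference of the 31. It was at 6.40, 30.96 and 16.8 TPM among the wild type, compared with 7.33, 4.54 and 5.49 TPM in the knockout. The groups overlapped, because wild type replicate 1 lay within the knockout range. Its log2 difference was -1.27 (SE 0.47, 95% interval -2.37 to -0.17; limma adjusted p 0.579), and it ranged from -1.83 without wild type replicate 1 to -0.78 without wild type replicate 2.

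Hsd17b7, the 3-keto reductase of the C4-demethylation steps, was the one later enzyme whose groups did not overlap. It was at 18.5, 19.7 and 17.9 TPM among the wild type, compared with 9.40, 14.6 and 14.3 TPM in the knockout. The means were 18.7 ± 0.907 and 12.8 ± 2.91 TPM (SD, n = 3 each), with a log2 difference of -0.54 (SE 0.18, limma adjusted p 0.544, exact permutation p = 0.1). Knockout replicate 1, one of the libraries that stood apart, was the lowest, and the difference was -0.35 without it.

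Its partners in the removal of the methyl groups at C4 were Msmo1, the methyl oxidase, and Nsdhl, the decarboxylating dehydrogenase. Msmo1 was at 24.8, 73.4 and 88.7 TPM among the wild type, compared with 25.4, 37.0 and 44.3 TPM in the knockout (log2 -0.64, SE 0.45). Nsdhl was at 6.14, 11.5 and 11.7 TPM against 7.89, 6.65 and 7.19 TPM (log2 -0.34, SE 0.23). For both genes wild type replicate 1 was the lowest library and the other 2 wild type libraries were the highest of the 6. The sterol reductase Tm7sf2 was at 29.3, 42.7 and 62.7 TPM against 31.9, 30.8 and 25.5 TPM (log2 -0.54, SE 0.26, limma adjusted p 0.675).

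The lanosterol demethylase Cyp51 was at 9.83, 27.8 and 25.5 TPM among the wild type, compared with 15.8, 18.0 and 16.3 TPM in the knockout (log2 -0.19, SE 0.35). Lanosterol synthase, Lss, and the final reductase, Dhcr7, had differences of -0.06 (SE 0.25) and -0.15 (SE 0.26). Sc5d and Ebp, which desaturate and isomerise the sterol ring, were the 2 later enzymes that were higher, by 0.16 (SE 0.21) and 0.06 (SE 0.14). These 2 were also the most abundant enzymes of the pathway, with means over the 6 libraries of 150.0 and 130 TPM, against 6.61 TPM for Lss.

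**Figure D2:**
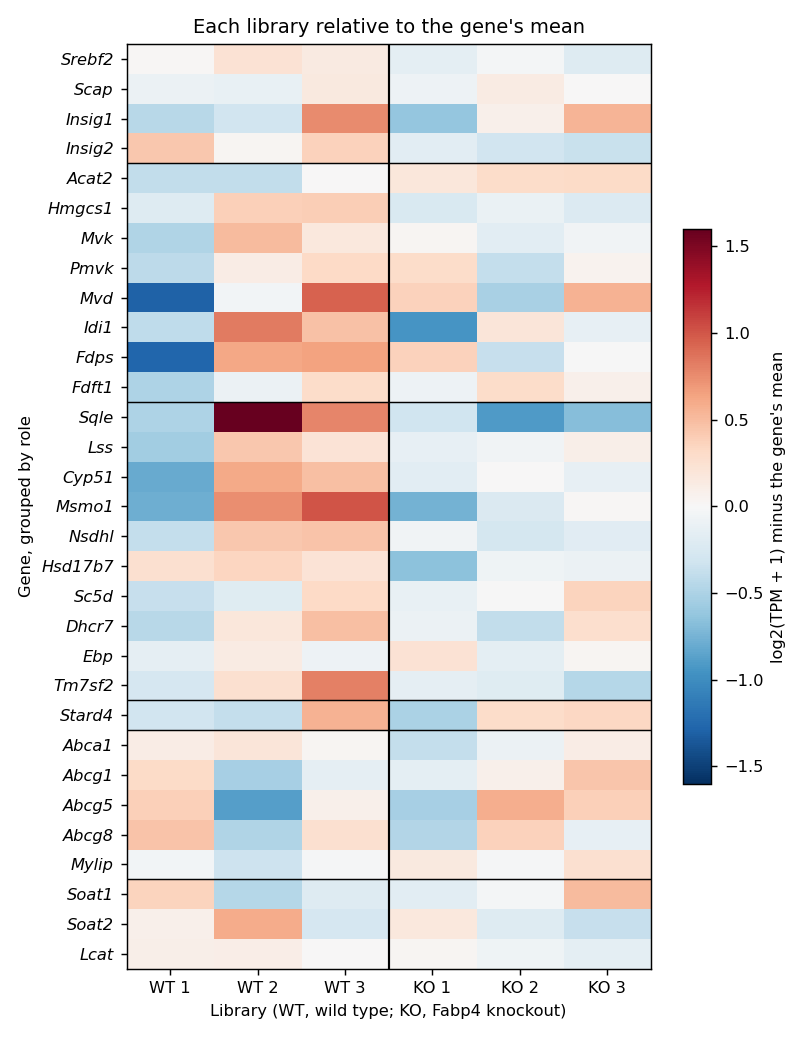
Centred log2(TPM + 1), that is, each value less the average of its gene across libraries, for the 31 genes in rows grouped by role and the 3 wild type (WT) and 3 knockout (KO) libraries in columns; red is above the mean and blue below. The synthesis enzymes are mostly blue in WT 1 and mostly red in WT 2 and WT 3, while the KO columns lie between them.

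Wild type replicate 1 was low beside the other wild type libraries for most of the synthesis enzymes. It was the lowest of the 6 libraries for 12 of the 18 synthesis enzymes, and 1 of the 18, Hsd17b7, was above its own mean there. Wild type replicate 3 was above the mean for 17 of the 18 and wild type replicate 2 for 14. The mean of the centred log2 values over the 18 enzymes was -0.50, 0.36 and 0.44 in wild type replicates 1, 2 and 3 and -0.12, -0.17 and -0.01 in the knockout replicates. All 3 knockout libraries thus lay between wild type replicate 1 and the other wild type libraries. The SD over the 3 libraries was 0.52 in wild type and 0.082 in the knockout, a difference in spread that was not tested. The enzymes' summed level was 489, 774 and 845 TPM among the wild type and 620, 594 and 669 TPM in the knockout.

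The number of members whose groups did not overlap depended on which library was left out, most of all on wild type replicate 1. Without it, 16 of the 31 members (51.6%) did not overlap between groups, against 24.5% of all genes in the same 5 libraries. Of those 16, 13 were lower in the knockout (7.18% of all genes were), 11 of them synthesis enzymes. At an unadjusted limma p under 0.05 there were then 12 members, against 8.59% of all genes. Of these, 11 were lower, against 2.56% of all genes that way, and 1 was higher. Still 0 passed the adjusted threshold (smallest limma adjusted p 0.356). Each of the 6 libraries was left out in turn, and this one is singled out because its values were seen to be low. Leaving out the library that is lowest for these enzymes raises their wild type minimum. More members lower without overlap therefore follow from that choice, and the shares of all genes, not chosen that way, are no like background. Without wild type replicate 3 there were 9 members whose groups did not overlap, 4 lower and 5 higher, against 26.3% of all genes.

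**Figure D3:**
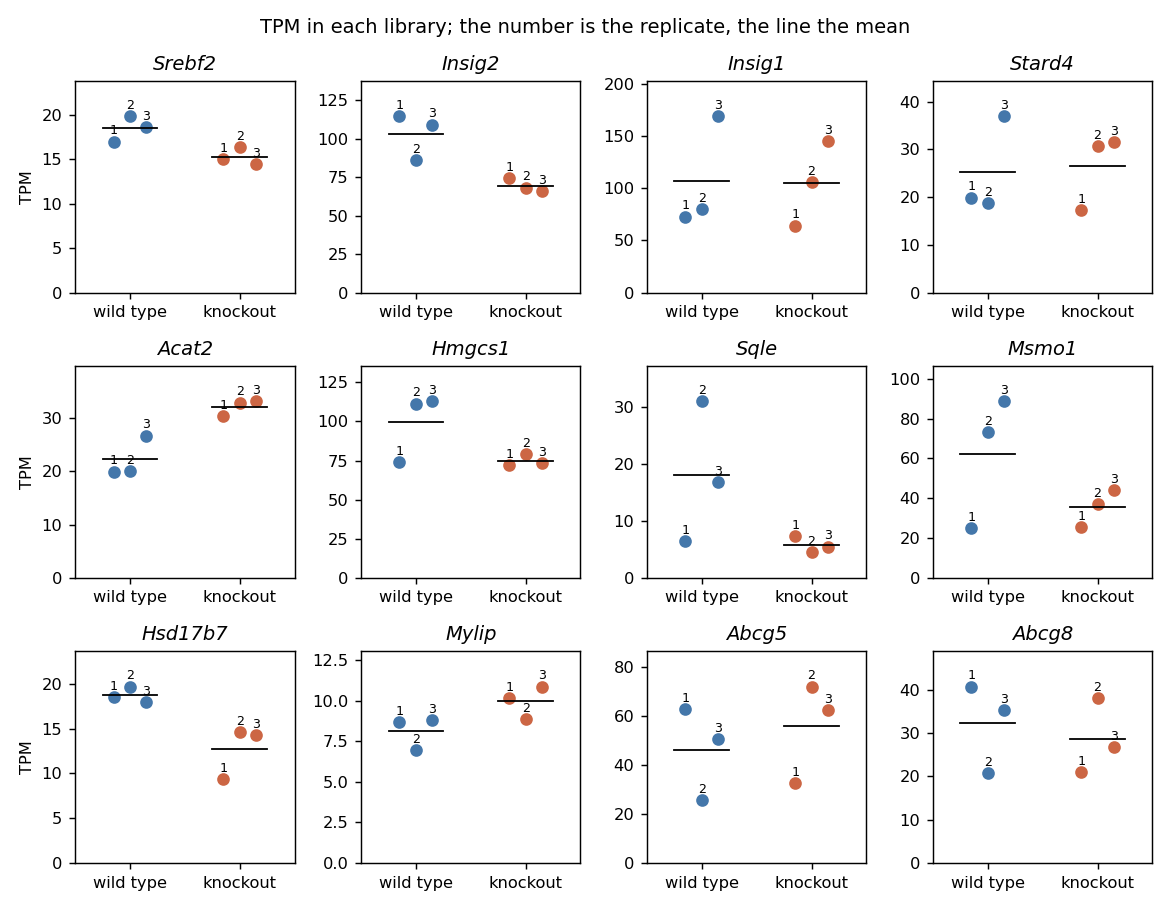
TPM in each library for 12 of the sterol genes, wild type in blue and knockout in orange; numbers are replicates and lines are group means. Insig2, Srebf2 and Hsd17b7 are lower and Acat2 and Mylip higher in all 3 knockout libraries, while for Sqle, Msmo1 and Hmgcs1 wild type replicate 1 sits at the level of the knockout.

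Not every SREBP2 target followed that order of libraries. Stard4, a soluble carrier that takes cholesterol to the endoplasmic reticulum, was at 19.9, 18.8 and 36.9 TPM among the wild type, compared with 17.2, 30.7 and 31.5 TPM in the knockout (log2 0.09, SE 0.31). Its high libraries were wild type replicate 3 and knockout replicates 2 and 3, the same as for Insig1, and wild type replicate 2, the highest library for Sqle, was among the low ones. Sc5d was highest in wild type replicate 3 and knockout replicate 3, at 185 and 189 TPM. Across the 6 libraries, the Pearson correlation of 1 target with the mean of the other 19 was at least 0.90 for Msmo1, Cyp51, Lss and Nsdhl. It was 0.57 for Insig1, 0.41 for Stard4, 0.25 for Hsd17b7, 0.19 for Ebp and -0.01 for Acat2. These are descriptions over 6 libraries that share a normalization.

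The 5 LXR targets showed no common direction. Mylip encodes the ubiquitin ligase that sends lipoprotein receptors to degradation. It was at 8.70, 6.93 and 8.81 TPM among the wild type, compared with 10.1, 8.87 and 10.9 TPM in the knockout, so that every knockout library was higher (log2 0.26, SE 0.14, limma adjusted p 0.700). The gap was between 8.81 and 8.87 TPM, and after median scaling or quantile normalization the Mylip groups overlapped. Abca1, which loads cholesterol onto apolipoprotein A-I, was at 45.6, 48.1 and 42.8 TPM against 32.0, 39.2 and 45.6 TPM (log2 -0.23, SE 0.15). Its lowest library was knockout replicate 1, and the difference was -0.10 without it.

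Abcg5 and Abcg8 encode the partner subunits of the pump that moves sterols into bile. They lie next to each other on chromosome 17 on opposite strands, and their annotated spans, introns included, share 6710 bases. How much exon sequence they share was not measured. Reads from any shared exon sequence could be told apart only if counting used strand, which is not given in the sources used here. Abcg5 was at 62.6, 25.5 and 50.6 TPM among the wild type, compared with 32.7, 71.9 and 62.5 TPM in the knockout (log2 0.28, SE 0.38). Abcg8 was at 40.7, 20.8 and 35.3 TPM against 20.9, 38.2 and 26.7 TPM (log2 -0.16, SE 0.29). Both genes were low in the 2 libraries that stood apart, wild type replicate 2 and knockout replicate 1, one of each group. The ratio of Abcg5 to Abcg8 was lowest in wild type replicate 2 (1.23) and highest in knockout replicate 3 (2.34).

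Abcg1, an exporter to high-density lipoprotein known from macrophages, was low, at 4.28, 1.96 and 2.89 TPM among the wild type, compared with 2.85, 3.52 and 4.84 TPM in the knockout (log2 0.25, SE 0.25). Its 2 highest libraries, wild type replicate 1 and knockout replicate 3, were also the 2 with the most RNA from Kupffer cell and macrophage markers. The summed level of the 12 markers was 823, 273 and 360 TPM among the wild type and 579, 667 and 1252 TPM in the knockout. All 12 were higher in the knockout on average and 0 passed the adjusted limma threshold; 3 (25%) were higher at an unadjusted p under 0.05, against 5.12% of all genes. In bulk tissue, more cells of a type and more RNA per cell cannot be told apart, and the part of these cells in the Abcg1 values was not tested.

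The esterifying enzymes include Soat1 and Soat2, which make cholesteryl esters inside cells, and Lcat, which does so on plasma lipoproteins. Soat1, the form known from macrophages, followed the same libraries as Abcg1, at 2.71, 1.12 and 1.52 TPM among the wild type and 1.58, 1.86 and 3.13 TPM in the knockout (log2 0.20, SE 0.26). Soat2, the form of hepatocytes and intestine, was at 32.1, 45.8 and 24.8 TPM against 34.1, 26.0 and 23.1 TPM (log2 -0.27, SE 0.24). Lcat was the most abundant of the 31 genes and one of the steadiest, at 578, 582 and 544 TPM among the wild type and 554, 515 and 488 TPM in the knockout. Its log2 difference was -0.13 (95% interval -0.40 to 0.14), and its highest library was 1.19 times its lowest.

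Set side by side in each library, the SREBP2 targets (20 genes: Insig1, the 18 enzymes and Stard4) and the 5 LXR targets lay on opposite sides of their means in wild type replicates 1 and 2 and in knockout replicate 2. In wild type replicate 1 the mean centred value was -0.48 for SREBP2 targets, the lowest of the 6 libraries, and 0.24 for LXR targets, the highest. In wild type replicate 2 these were 0.29 and -0.41, the latter the lowest, and in wild type replicate 3 they were 0.46 and 0.04. Knockout replicate 2, at -0.13 and 0.18, had the same order as wild type replicate 1 with smaller values. Knockout replicate 1 was below the mean in both sets (-0.17 and -0.28) and knockout replicate 3 above it in both (0.03 and 0.21). Part of this pattern rested on Abcg5 and Abcg8, whose counts may share reads. Without them the LXR values were 0.13, -0.22 and -0.04 in the wild type and -0.12, -0.01 and 0.27 in the knockout. Knockout replicate 3 was then the highest, knockout replicate 2 was below the mean in both sets, and wild type replicate 3 lay on opposite sides.

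**Figure D4:**
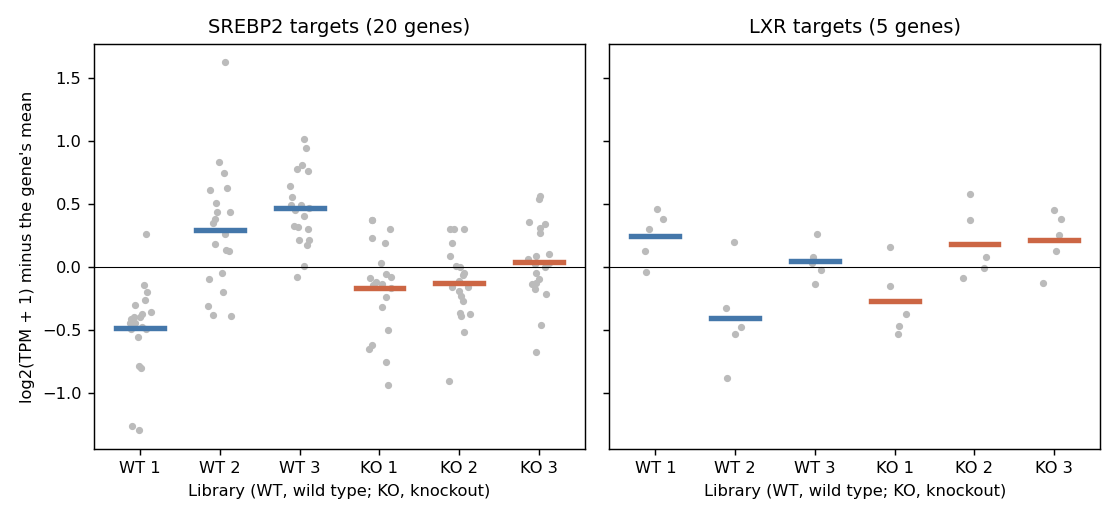
Centred log2(TPM + 1), each value less the average of its gene across libraries, for the 20 SREBP2 targets (left) and the 5 LXR targets (right), by library; grey points are genes, shifted sideways so as not to hide each other, and bars are their means (wild type blue, knockout orange). Wild type replicate 1 is at -0.48 on the left and 0.24 on the right.

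The value for SREBP2 targets minus that for LXR targets was -0.73, 0.70 and 0.42 in wild type replicates 1, 2 and 3. In the knockout it was 0.11, -0.32 and -0.18. The group means differed by -0.26, in size less than the SD of 0.76 over the wild type libraries but more than the 0.22 over the knockout libraries. The knockout values lay within the wild type range. The median log2 difference was -0.09 over the SREBP2 targets (7 higher and 13 lower) and 0.25 over the LXR targets (3 higher and 2 lower), beside 0.04 over all genes. Each of these medians depended on single libraries. That of the SREBP2 targets was -0.40 when wild type replicate 1 was left out (16 of 20 lower), -0.02 when replicate 2 was, 0.03 when replicate 3 was (12 of 20 higher) and 0.05 without the 2 libraries that stood apart. The LXR median was -0.09 with wild type replicate 2 left out, while leaving out replicate 2 or 3 of the knockout gave 0.06 or 0.09. It was 0.15 without the 2 libraries that stood apart.

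The wider pathway was followed through 45 further genes in 5 lists, of which 43 were abundant enough to test. Of these, 28 were higher and 15 lower, 0 passed the adjusted limma threshold, 5 (11.6%) had an unadjusted p under 0.05, against 8.03% of all genes, and 4 (9.3%) did not overlap between groups, against 13.3%. In the list of SREBP processing and sterol-regulated degradation 8 of 10 were higher. Rnf145, an LXR-induced ubiquitin ligase of the endoplasmic reticulum that acts on SCAP, was at 8.71, 4.81 and 8.40 TPM among the wild type, compared with 10.95, 12.6 and 13.9 TPM in the knockout. All 3 knockout libraries were higher, by 0.73 on the log2 scale (SE 0.22, limma adjusted p 0.536). Vcp, the ATPase that extracts ubiquitinated proteins from the endoplasmic reticulum, had the next smallest p in that list (log2 0.15, SE 0.12).

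Among 8 further targets of SREBP proteins, 4 were higher and 4 lower. Stard3, a late endosomal sterol transporter, was at 8.93, 6.40 and 7.38 TPM against 10.9, 11.01 and 10.3 TPM, and its groups did not overlap (log2 0.46, SE 0.14, limma adjusted p 0.536). Of 9 LXR and RXR receptor genes and further LXR targets, 4 were higher and 5 lower. Arl4c, a small GTPase, was at 1.04 ± 0.212 and 1.89 ± 0.550 TPM (SD, n = 3 each; log2 0.49, SE 0.19) with no overlap. Pltp, the phospholipid transfer protein, was at 34.2, 23.0 and 21.5 TPM among the wild type and 36.5, 30.7 and 47.5 TPM in the knockout (log2 0.53, SE 0.22). Pltp was highest in knockout replicate 3, where the macrophage markers were also highest, and the part of those cells was not tested.

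Of the 10 tested genes of lysosomal and membrane sterol transport, 8 were higher, among them Gramd1c (log2 0.32, SE 0.16), a carrier between plasma membrane and endoplasmic reticulum whose groups did not overlap, and Lipa (0.18, SE 0.16), the lysosomal acid lipase. Among 6 tested genes of cholesteryl ester hydrolysis and oxysterol formation, 4 were higher and 2 lower. Nceh1, a neutral cholesteryl ester hydrolase, was at 36.5, 33.8 and 23.5 TPM among the wild type, compared with 22.5, 23.6 and 22.2 TPM in the knockout (log2 -0.42, SE 0.17). The carboxylesterase Ces1f was at 241, 128 and 285 TPM against 276, 393 and 325 TPM (log2 0.66, SE 0.29), and both pairs of groups overlapped.

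Markers of other cells moved between the libraries beside these values. The 10 endothelial markers summed to 180 to 222 TPM among the wild type and 259 to 308 TPM in the knockout, with 8 of the 10 higher and not overlapping, against 8.94% of all genes. Of these markers 0 passed the adjusted limma threshold, and 7 were higher at an unadjusted p under 0.05, against 5.12% of all genes. The 10 hepatocyte markers gave a median difference of 0.09, with 6 higher. Apoa1, Ass1 and Serpina1c were lower, and Alb had the same value in every library, so it carries no information here. The 4 tested neutrophil markers were lower (median -0.87), from -1.02 for S100a8 to -0.12 for Csf3r. At an unadjusted limma p under 0.05, 3 were lower, against 2.91% of all genes, and 0 passed the adjusted threshold. Of those too low to test, Elane was lower and Cxcr2 higher on average. The 2 defining ones, Ly6g and Mpo, were at 0 in 5 of the 6 libraries. All 7 stellate cell and fibroblast, 5 cholangiocyte and 5 red blood cell markers were higher. So were 4 of the 5 tested lymphocyte markers. The part of all these cells in the sterol gene values was not tested.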

How the data were processed

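Liver RNA from 6 samples (3 wild type, 3 Fabp4 knockout) was sequenced on a HiSeq system, as the labels' protocols state. FastQC, Trimmomatic and the build mm10 are named in the submitters' processing notes; the sources used here name no versions, aligner, quantifier, annotation or strandedness. Per the file headers the columns hold TPM, yet what the authors deposited is log2 of it: some are negative, and back-transformed they total 983800 to 1018120 per library. Every library has a median of 1.07 and the same value for Alb, so the authors may have forced a common distribution, under which a shift of all genes would not be seen. Gene lengths and positions are as deposited, per the file headers.

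Values were back-transformed to TPM, with blanks as 0. A mean of 0.5 TPM or more kept 14155 of 48882 genes. The test was limma 3.58.1 (R 4.3.3) on log2(TPM + 1), with a variance trend, group as the only term and Benjamini-Hochberg adjustment over all genes kept; this was tested on simulated data. Single genes had an exact permutation test. A library's value for a set averages the centred log2(TPM + 1) of its genes, given without a test. The members and lists were chosen with earlier results of these data known. Values in every library are given for 8 named members and for up to 4 members per role with the smallest p, and for further lists up to 2 genes are named by smallest p; other members were added after their values were seen. Ufd1 was matched through an older symbol in the GRCm38.p6 RefSeq table. A planned promoter motif search was not run, since no sequence was used here. Of the 31 members, 12 overlap another gene's annotated span, and 7 of them a gene abundant enough to test, among them Fdft1 (Ctsb), Tm7sf2 (Vps51) and the pair Abcg5 and Abcg8, whose counts may share reads.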

Additional observations from a re-analysis of the deposited data

How the results depend on the processing

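Over 16 alternatives (pseudocounts of 0.1 and 0.01, no filter, a filter at 5 TPM, median scaling, quantile normalization, no variance trend, a replicate block, each library left out in turn, and 2 chosen after seeing the data: the deposited log2 values without a pseudocount, and both libraries that stood apart left out), 0 of the 31 members passed the adjusted limma threshold in any, and 0 of the other pathway genes; the smallest member adjusted p was 0.288. Direction held in every alternative for 18 members, Insig2, Acat2, Hsd17b7, Sqle, Srebf2 and Mylip among them. It turned for 13 in 38 of 494 values. Of the members named here, all but Sqle had groups that did not overlap. For those, leaving out libraries or changing the pseudocount could not turn the sign. The number of genes called over the whole table was 1, but 0 without a filter, 0 with the replicate block, 0 on the deposited log2 values, 3 without the 2 libraries that stood apart, and between 0 and 6 with 1 library left out (0 without wild type replicate 1 or knockout replicate 2, 4 with knockout replicate 3 left out, and 6 with wild type replicate 3 left out). Members not overlapping between groups numbered 5 to 16 with 1 library left out, where 19.6% to 27.4% of all genes did not overlap, against 13.3% with all libraries. After median scaling or quantile normalization that number stayed 5, but Lcat (lower) took the place of Mylip. The LXR median ranged from -0.0897 to 0.309 with 1 library left out, and it was 0.05 with the filter at 5 TPM, where Abcg1 and Soat1 were not tested. Genes with an unadjusted p under 0.05 split into 725 higher and 412 lower, but into 565 and 530 after median scaling, 570 and 537 after quantile normalization, 406 and 251 with the filter at 5 TPM and 426 and 256 without knockout replicate 3.

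Insig1, at 0.00, was -0.0356 after median scaling and -0.0230 after quantile normalization. Fdps, also at 0.00, was 0.0056 and 0.0063 with pseudocounts of 0.1 and 0.01, 0.0063 on the deposited log2 values and 0.12 without the 2 libraries that stood apart. Without those libraries Mvk was at 0.0476, Lss at 0.194 and Cyp51 at 0.0989. With 1 library left out, the log2 differences that turned ranged from -0.0160 to 0.130 (Scap), -0.27 to 0.38 (Insig1), -0.400 to 0.0925 (Mvk), -0.23 to 0.17 (Pmvk), -0.31 to 0.81 (Mvd), -0.63 to 0.32 (Fdps), -0.36 to 0.14 (Lss), -0.642 to 0.0628 (Cyp51), -0.406 to 0.0598 (Dhcr7), -0.0367 to 0.158 (Ebp), -0.0828 to 0.387 (Stard4), -0.0897 to 0.619 (Abcg5) and -0.437 to 0.0398 (Abcg8). The causes were not tested. The labels do not say whether the replicate numbers pair the samples. Deviations from the group mean correlated at -0.26, -0.27 and -0.05 for same-numbered libraries, and between -0.06 and 0.28 for unlike-numbered ones. Same-numbered libraries were thus not alike, but so few deviations, which cancel within each group, cannot decide whether samples were paired. With the replicate block, 6 members had an unadjusted p under 0.05 against 4, while the share of all genes was 5.76% against 8.03%.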

Other observations

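By a fixed rule, the 10 named protein-coding genes outside the list whose pattern over the 6 libraries was nearest to the mean of the 20 SREBP2 targets were B3galt6, Slc36a1, Gcat, Coq6, Slc22a7, Ltbr, Cyp2u1, Zfyve21, Vps37b and Lor. Their Pearson correlations lay between 0.94 and 0.99 over 6 libraries that share a normalization. Of the 14155 genes tested, the targets themselves included, 46 reached 0.9. Slc22a7, an organic anion transporter of hepatocytes, averaged 15.5 TPM, and Coq6, an enzyme of ubiquinone synthesis, 13.6 TPM.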
